A study of Mus musculus with 8 samples.

Results

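The type I interferon stimulated genes described here are 40 genes, chosen by symbol as well known targets of interferon signalling, and read from the rows of the deposited count table that carry those symbols. All 40 were among the 24976 genes of the table, and 39 were among the 13073 genes with enough reads to test. Ifi44 was too low. The RNA came from CD8 T cells of B16-OVA tumours and was sequenced in bulk, where B16-OVA is a mouse melanoma line made to express the antigen ovalbumin. The tumours had grown under the skin of Rag2-/- mice, which lack T and B cells of their own, for 10 days before CD8 T cells were transferred, and the infiltrating cells were taken 10 days after transfer. Donors were WT or carried Cd8Cre, NR4a1flox/flox, NR4a2flox/flox and the OT-I transgene, which encodes a T cell receptor for ovalbumin, and are labelled Nr4a dKO. Whether the WT donors had OT-I is not in the labels, so the deletion and the receptor cannot be told apart in a comparison of genotypes. CD3e+CD8+ cells were sorted into PD1+Tim3- and PD1+Tim3+ fractions, of which the latter is held to be the more terminally exhausted. Each of the 4 combinations of genotype and sort had 2 libraries, and each library held the cells of 1 implanted mouse.

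Type I interferons bind the receptor formed by IFNAR1 and IFNAR2, whose kinases JAK1 and TYK2 switch on a complex of transcription factors. This complex, which contains IRF9, enters the nucleus and binds the interferon stimulated response element in the promoters of genes for RNA sensors, RNA degradation and other antiviral defences. Many of the same genes also respond to interferon gamma, so their mRNA alone does not tell which interferon acted. In chronically stimulated T cells these genes are a familiar part of expression profiles.

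Total counts per library ran from 1944999 to 13418762, and the shallowest library was replicate 2 of the labelled dKO PD1+Tim3- group. Levels are CPM, counts relative to library sizes scaled by TMM, a factor that sets most genes equal between libraries. Nr4a1 was not lower but higher in the libraries labelled dKO, at 1175 to 1489 CPM against 789 to 979 CPM in WT. Averaged over the sorts its log2 difference was 0.61 ± 0.09 (SE, edgeR adjusted p 0.00988), and it did not pass within either sort. Nr4a2 overlapped at 929 to 984 CPM in the labelled dKO against 958 to 1034 CPM in WT. Whether the counted reads fall in the deleted exons is not known, so the genotype is given as labelled throughout. The 7 CD8 T cell markers summed to 3515 to 4551 CPM, and Havcr2, which encodes Tim3, was higher in PD1+Tim3+ cells by 3.82 ± 0.18 (log2, SE) in WT and 4.03 ± 0.19 in the labelled dKO. Among the lists of other cells, NK cell markers summed to the most, 36.0 to 72.3 CPM, most of it Eomes, which CD8 T cells also express, and Ncr1 was at 0.214 CPM in 1 library and at 0 in the other 7. Fibroblast and endothelial markers summed to 22.6 to 40.2 CPM, most of it Pecam1, and B16 melanoma markers to 18.0 to 22.2 CPM, most of it Tyr. Macrophage markers summed to 6.30 to 15.5 CPM, plasmacytoid dendritic cell markers to 5.27 to 12.4 CPM and neutrophil markers to at most 0.558 CPM, and the B cell gene Ms4a1 was at 0 in all libraries. In bulk RNA, fewer cells that express a gene and less RNA per cell cannot be told apart.

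The interferon stimulated genes were moderately expressed, and their levels per length spanned a wide range. On the RPKM scale, CPM per kilobase of the longest GENCODE transcript, the highest means over the groups were those of Ifi27l2a at 319, Bst2 at 196, Epsti1 at 174, Ifi47 at 144, Sp100 at 130 and Parp12 at 114. The lowest tested were Oas2 at 0.685 and Oasl2 at 1.03 RPKM. Ifi44, which encodes a cytoplasmic protein of the interferon response, had 1 and 1 counts in WT PD1+Tim3- cells, 2 and 1 in the labelled dKO PD1+Tim3- cells, 0 and 4 in WT PD1+Tim3+ cells and 1 and 1 in the labelled dKO PD1+Tim3+ cells, and no difference was detectable at this depth. The median SD of the members within a group was 0.113 on the log2 scale, against 0.191 over all tested genes. The members were not matched with other genes for level, and the part of level in this was not tested. The SD was 0.50 for Oas2, 0.46 for Mx2 and 0.41 for Oasl2, which were low, and 0.43 for the abundant Parp12. Over the members of a library, the shift in the median log2 level relative to the mean of all libraries was small. It was -0.06 and -0.13 in WT and 0.02 and 0.02 in labelled dKO PD1+Tim3- cells. In PD1+Tim3+ cells it was 0.04 and 0.02 in WT and 0.06 and -0.01 in the labelled dKO. The WT PD1+Tim3- libraries were the lowest, below the other 6.

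**Figure D1:**
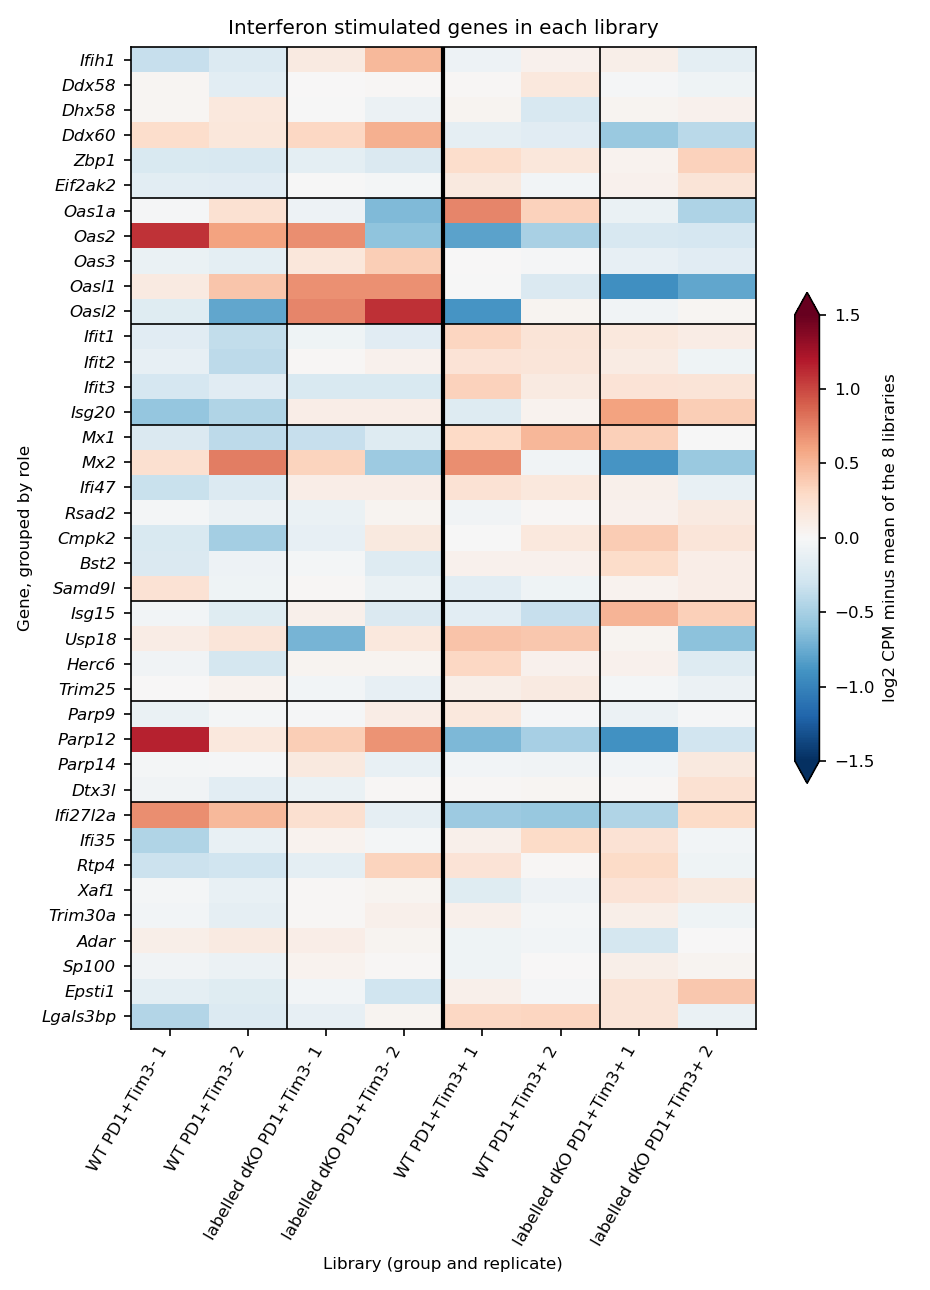
Level of each tested member (rows, by role) in each of the 8 libraries (columns), as log2 CPM relative to the mean of that gene over the libraries. Neighbouring rows move in different directions between PD1+Tim3- and PD1+Tim3+ libraries, with Parp12, Oasl1 and Ddx60 lower and Mx1, Zbp1 and Ifit3 higher in PD1+Tim3+ libraries.

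Promoters of 30 of the 40 members were matched in RefSeq (GRCm38.p6), as 37 windows from 250 bases before to 50 bases after a transcript start. Oas2, Rtp4, Mx2, Zbp1, Parp9, Dhx58, Mx1, Usp18, Parp14 and Ifi27l2a were not matched. The core of the interferon stimulated response element was searched as GAAANNGAAA or its reverse complement TTTCNNTTTC, and overlapping matches were each counted. It was found in 13 of the 37 windows (35.1%), belonging to 12 genes, against 1131 of all 32851 windows (3.44%). A match is a description of the letters and not a binding site. The 160 bases before the start are shown for members that differ in how they moved, read along the strand of the gene and with matches to the response element in capitals: Isg15 (chr4:156200819-156200978, reverse strand), with 3 overlapping matches, Ifit1 (chr19:34640729-34640888, forward) and Ifit3 (chr19:34583369-34583528, forward), which were higher in PD1+Tim3+ cells, and Ddx60 (chr8:61927927-61928086, forward), which was lower there.
Isg15: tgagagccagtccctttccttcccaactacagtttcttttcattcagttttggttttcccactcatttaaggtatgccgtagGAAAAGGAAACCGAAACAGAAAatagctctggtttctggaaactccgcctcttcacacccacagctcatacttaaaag
Ifit1: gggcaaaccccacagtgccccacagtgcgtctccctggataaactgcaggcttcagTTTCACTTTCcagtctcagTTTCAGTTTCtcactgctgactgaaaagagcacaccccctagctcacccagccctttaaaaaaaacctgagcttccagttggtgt
Ifit3: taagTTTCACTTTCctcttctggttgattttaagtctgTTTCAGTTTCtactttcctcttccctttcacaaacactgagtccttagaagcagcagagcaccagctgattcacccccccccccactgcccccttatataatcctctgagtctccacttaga
Ddx60: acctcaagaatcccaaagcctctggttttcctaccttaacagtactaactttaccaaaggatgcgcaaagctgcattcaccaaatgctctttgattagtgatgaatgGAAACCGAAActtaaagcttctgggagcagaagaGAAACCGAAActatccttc
Ddx60 carried 2 copies of the same 10 letters, GAAACCGAAA, and Ifit1 and Ifit3 carried the same pair of matches, TTTCACTTTC and TTTCAGTTTC, on the other strand. Members with a match therefore include genes that were higher and a gene that was lower in PD1+Tim3+ cells.

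**Figure D2:**
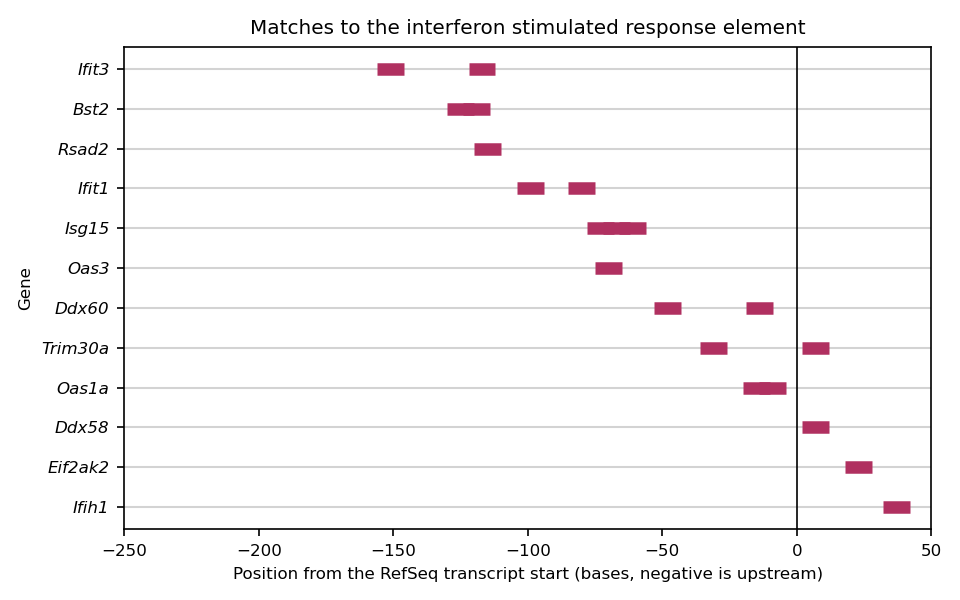
Positions of matches to the interferon stimulated response element (bars) in the promoters of the 12 members that hold one, in bases from the RefSeq transcript start. Ifit3, Bst2, Rsad2, Ifit1, Isg15, Oas3, Ddx60 and Oas1a hold matches upstream of the start only, and Ddx58, Eif2ak2 and Ifih1 downstream only.

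The clearest differences were between the sorts. Over both genotypes, 9 of the 39 tested members were higher and 5 were lower in PD1+Tim3+ than in PD1+Tim3- cells, as the mean of the WT and labelled dKO differences, at an adjusted p under 0.05 in edgeR's quasi-likelihood test with Benjamini-Hochberg adjustment over all tested genes. That is 35.9% of the members, beside 22.8% of all tested genes, of which 12.2% were higher and 10.6% lower. The higher members were Mx1, Zbp1, Ifit1, Ifit3, Isg20, Cmpk2, Bst2, Epsti1 and Lgals3bp, by 1.19-fold to 1.51-fold, and the lower ones were Parp12, Oas2, Oasl1, Ifi27l2a and Ddx60, by 1.54-fold to 2.31-fold. The median log2 fold change of the members was 0.10 against 0.01 over all genes, so as a list they neither rose nor fell by much. Levels of all 4 PD1+Tim3+ libraries lay above all 4 PD1+Tim3- libraries for 6 members and below them for 4, where 12.3% and 10.6% of all genes did so. Of the 14 calls DESeq2 kept 6, those of Mx1, Zbp1, Parp12, Ddx60, Oasl1 and Ifi27l2a. With each library left out in turn, the count ran from 6 to 17, and Mx1, Zbp1, Ifit3, Parp12 and Ddx60 passed in every such fit.

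Among the effectors that rose, Mx1, a dynamin-like GTPase that traps viral nucleocapsids, reached 25.2 and 22.4 CPM in WT and 23.2 and 25.7 CPM in labelled dKO PD1+Tim3- cells, and 36.2 and 41.6 CPM in WT and 37.6 and 29.2 CPM in labelled dKO PD1+Tim3+ cells. The groups of the sorts did not overlap, and the averaged log2 fold change was 0.59 ± 0.11 (SE, edgeR adjusted p 0.00276). Cmpk2, a mitochondrial nucleotide kinase, had 19.5 and 15.96 CPM in WT and 20.8 and 25.2 CPM in labelled dKO PD1+Tim3- cells, and 22.6 and 25.3 CPM in WT and 29.6 and 25.9 CPM in labelled dKO PD1+Tim3+ cells. Its sorts overlapped over the 8 libraries, though not within a genotype, and it rose by 0.37 ± 0.11 (adjusted p 0.0349). Bst2, or tetherin, which holds budding virus at the cell surface, had 133 and 146 CPM in WT and 152 and 135 CPM in labelled dKO PD1+Tim3- cells, and 161.2 and 161.3 CPM in WT and 186 and 166 CPM in labelled dKO PD1+Tim3+ cells. It rose by 0.25 ± 0.08 (adjusted p 0.0481) without overlap. The call of Bst2 was lost without the low-count filter, in DESeq2 and with either replicate block. That of Cmpk2 was lost in DESeq2 and with either block. With each library left out in turn, the difference was 0.21 to 0.29 for Bst2 and 0.29 to 0.46 for Cmpk2. These ranges are of the differences alone and do not show that the calls held. The related GTPase gene Mx2 was low and scattered, at 4.55 and 6.63 CPM in WT and 4.89 and 2.62 CPM in labelled dKO PD1+Tim3- cells, and 6.29 and 3.71 CPM in WT and 2.05 and 2.59 CPM in labelled dKO PD1+Tim3+ cells, and its difference of -0.54 ± 0.29 did not pass (adjusted p 0.214). Rsad2, which encodes viperin, and Samd9l, a translation inhibitor, gave 0.10 ± 0.11 and -0.04 ± 0.08 and did not pass.

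In WT cells, the RNA-binding IFIT genes and Isg20, 4 in all, were each higher in PD1+Tim3+ cells and passed the test. Over both genotypes 3 of the 4 passed. Of all tested genes, 8.25% were called higher in WT and 12.2% over both genotypes. All 4 WT calls were lost in DESeq2, and those of Ifit2, Ifit3 and Isg20 also with either replicate block. That of Isg20 was lost with robust empirical Bayes as well. With each library left out in turn, the WT differences of these genes lay between 0.32 and 0.63. This range is of the differences alone and does not show that the calls held. Ifit3 gave 21.8 and 23.0 CPM in WT and 22.1 and 22.0 CPM in labelled dKO PD1+Tim3- cells, and 33.0 and 28.4 CPM in WT and 29.8 and 29.6 CPM in labelled dKO PD1+Tim3+ cells. Its libraries separated by sort, and the averaged difference was 0.44 ± 0.09 (adjusted p 0.00702). Ifit1, which binds foreign RNA ends, had 18.3 and 15.96 CPM in WT and 19.7 and 18.4 CPM in labelled dKO PD1+Tim3- cells, and 25.8 and 23.6 CPM in WT and 23.1 and 22.4 CPM in labelled dKO PD1+Tim3+ cells. It also separated by sort, with 0.37 ± 0.10 (adjusted p 0.0222). Ifit2, which binds AU-rich RNA, had 25.3 and 20.9 CPM in WT and 27.9 and 28.9 CPM in labelled dKO PD1+Tim3- cells, and 31.8 and 31.4 CPM in WT and 30.0 and 26.4 CPM in labelled dKO PD1+Tim3+ cells. It was higher in WT PD1+Tim3+ cells by 0.44 ± 0.13 (adjusted p 0.0405), while its labelled dKO sorts overlapped. Isg20, an RNA exonuclease, had 15.4 and 16.8 CPM in WT and 24.8 and 24.7 CPM in labelled dKO PD1+Tim3- cells, and 20.2 and 23.9 CPM in WT and 35.2 and 29.9 CPM in labelled dKO PD1+Tim3+ cells. It was higher in PD1+Tim3+ cells within both genotypes, and passed in WT but not in the labelled dKO. The averaged difference was 0.44 ± 0.11 (adjusted p 0.0123). Of the near copies of these genes, Ifit1bl1 also rose (0.33 ± 0.10, adjusted p 0.0361) and Ifit3b did not pass (0.22 ± 0.17, adjusted p 0.397), and how reads shared between them were counted is not known.

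Sensors of foreign nucleic acid and the OAS family, whose enzymes make oligoadenylates that activate RNase L, split in direction. Zbp1, a sensor of Z-form nucleic acid that can start necroptosis, had 67.5 and 67.2 CPM in WT and 71.1 and 68.2 CPM in labelled dKO PD1+Tim3- cells, and 94.5 and 88.7 CPM in WT and 82.3 and 100.3 CPM in labelled dKO PD1+Tim3+ cells. It rose by 0.41 ± 0.08 (adjusted p 0.00448) without overlap. Ddx60, a helicase linked to RIG-I signalling, had 18.2 and 17.0 CPM in WT and 18.8 and 22.0 CPM in labelled dKO PD1+Tim3- cells, and 13.8 and 13.43 CPM in WT and 10.2 and 11.5 CPM in labelled dKO PD1+Tim3+ cells. It fell by 0.63 ± 0.11 on the log2 scale (adjusted p 0.00242), again without overlap. Oasl1, which restrains translation of Irf7 mRNA, had 3.55 and 4.35 CPM in WT and 5.25 and 5.25 CPM in labelled dKO PD1+Tim3- cells, and 3.23 and 2.79 CPM in WT and 1.68 and 1.85 CPM in labelled dKO PD1+Tim3+ cells. It fell by 0.98 ± 0.23 (adjusted p 0.0106), and every PD1+Tim3+ library was below every PD1+Tim3- library. Oas2 was at 5.26 and 3.73 CPM in WT and 3.98 and 1.57 CPM in labelled dKO PD1+Tim3- cells, and at 1.36 and 1.71 CPM in WT and 2.05 and 2.03 CPM in labelled dKO PD1+Tim3+ cells. It fell by 1.09 ± 0.30 (adjusted p 0.0212), with a single low labelled dKO PD1+Tim3- library inside the PD1+Tim3+ range. Without labelled dKO PD1+Tim3- replicate 1 the difference was -0.57 and did not pass, and the call was lost in 6 of 14 alternative fits (adjusted p 0.0151 to 0.498 over the libraries left out). The other sensors, Ifih1 (MDA5), Ddx58 (RIG-I), Dhx58 (LGP2) and the kinase gene Eif2ak2 (PKR), lay between -0.07 and 0.18 and did not pass, nor did Oas1a, Oas3 and Oasl2. The response element was found in promoters of Ddx58, Ifih1, Eif2ak2, Oas3 and Oas1a as well, none of which passed.

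Parp12 and Ifi27l2a were the abundant members among those that fell. Parp12, an ADP-ribosyltransferase that blocks viral translation, had 736 and 371 CPM in WT and 429 and 529 CPM in labelled dKO PD1+Tim3- cells, and 207 and 235 CPM in WT and 176 and 272 CPM in labelled dKO PD1+Tim3+ cells. The sorts did not overlap although the WT PD1+Tim3- mice differed from each other, and the averaged level was 2.31-fold lower in PD1+Tim3+ cells (log2 -1.21 ± 0.20, adjusted p 0.00147). Without the highest library, WT PD1+Tim3- replicate 1, the averaged difference was -0.92 and still passed. Parp9, Parp14 and Dtx3l, of the same family and its partner, gave 0.02, -0.00 and 0.15 and did not pass. Parp9 and Dtx3l overlap on opposite strands, and without a known strand setting their reads cannot be fully told apart. Ifi27l2a, a small interferon-induced mitochondrial protein, had 228 and 197 CPM in WT and 166 and 128 CPM in labelled dKO PD1+Tim3- cells, and 96.2 and 94.6 CPM in WT and 103 and 171 CPM in labelled dKO PD1+Tim3+ cells. Its sorts were far apart in WT and overlapped in the labelled dKO, and the average fell by 0.64 ± 0.15 (adjusted p 0.00933).

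Of the remaining members, Epsti1, an epithelial stromal interaction gene, had 292 and 285 CPM in WT and 313 and 263 CPM in labelled dKO PD1+Tim3- cells, and 340 and 319 CPM in WT and 369 and 425 CPM in labelled dKO PD1+Tim3+ cells, a rise of 0.32 ± 0.09 (adjusted p 0.0253) without overlap. The call of Epsti1 was lost in DESeq2 and with either replicate block. Lgals3bp, a secreted galectin ligand, had 61.8 and 72.6 CPM in WT and 76.9 and 86.6 CPM in labelled dKO PD1+Tim3- cells, and 104.6 and 104.9 CPM in WT and 96.2 and 78.3 CPM in labelled dKO PD1+Tim3+ cells. It rose by 0.38 ± 0.09 (adjusted p 0.0132), with the sorts apart in WT and overlapping in the labelled dKO. Sp100, a nuclear body protein and among the most abundant members, hardly moved, at 337 and 329 CPM in WT and 364 and 356 CPM in labelled dKO PD1+Tim3- cells, and 336.5 and 353 CPM in WT and 373 and 360.0 CPM in labelled dKO PD1+Tim3+ cells (0.04 ± 0.08, adjusted p 0.764). Isg15 and the genes of its conjugation pathway, Usp18, Herc6 and Trim25, lay between 0.05 and 0.19, and none of the 4 passed. Rtp4, Xaf1, Trim30a, Adar and Ifi35 lay between -0.18 and 0.27 and did not pass. Over the 7 comparisons, 18 of the 39 tested members passed in at least 1, and 21 passed in none. The share of all tested genes over the 7 comparisons was not computed, and 22.8% passed in the averaged comparison of the sorts alone.

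**Figure D3:**
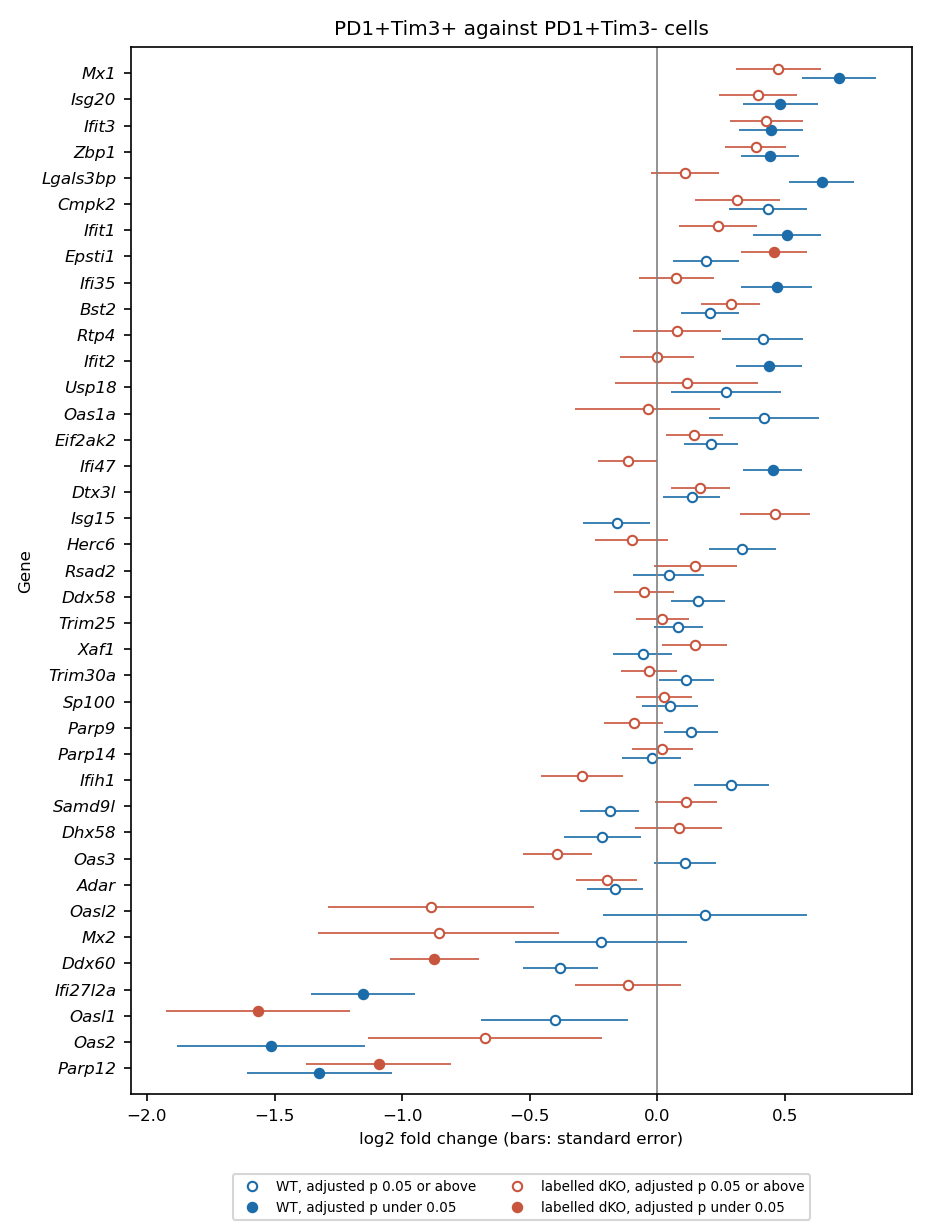
Log2 fold change of PD1+Tim3+ against PD1+Tim3- cells for the 39 tested members, in WT and in the labelled dKO, with standard errors as bars and filled points for an edgeR adjusted p under 0.05. Parp12 is filled and low in both genotypes, 9 members are filled and high in WT, and Epsti1 is the filled high point in the labelled dKO.

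Within WT, 12 members passed (30.8%, beside 17% of all tested genes, 8.25% higher and 8.76% lower): Mx1, Zbp1, Ifit1, Ifit2, Ifit3, Isg20, Ifi47, Ifi35 and Lgals3bp were higher in PD1+Tim3+ cells, and Parp12, Oas2 and Ifi27l2a were lower. Ifi47, an immunity-related GTPase, had 200.05 and 219.95 CPM in WT PD1+Tim3- cells and 293 and 281 CPM in WT PD1+Tim3+ cells, beside 271.6 and 271.9 CPM and 267 and 234 CPM in the labelled dKO. It rose by 0.45 ± 0.12 in WT (adjusted p 0.0221), and shares its locus with the olfactory receptor gene Olfr56 on the same strand. Ifi35, which encodes a leucine zipper protein, had 44.4 and 56.2 CPM in WT PD1+Tim3- cells and 63.8 and 73.8 CPM in WT PD1+Tim3+ cells, beside 62.6 and 59.3 CPM and 70.4 and 58.8 CPM in the labelled dKO. It rose by 0.47 ± 0.14 in WT (adjusted p 0.0402). Mx1 had the highest difference in WT (0.71 ± 0.15, adjusted p 0.00788) and Oas2 the lowest (-1.51 ± 0.37, adjusted p 0.0172), followed by Parp12 (-1.32 ± 0.28, adjusted p 0.00969) and Ifi27l2a (-1.15 ± 0.20, adjusted p 0.00464). Without WT PD1+Tim3- replicate 1, the WT difference of Parp12 was -0.74 and that of Ifi35 was 0.31, and neither passed (adjusted p up to 0.0916 and 0.325 over the libraries left out). Groups did not overlap for 23 members that were higher and 7 that were lower, where 32.7% and 30.3% of all genes behaved so. The count of 12 rests on few libraries and moved when a library was left out, as did the count over all genes. It was 4 with DESeq2, which called 9.97% of all genes.

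Markers of other cells also moved with the sort in WT, and their part in these results was not tested. Of the 7 macrophage and monocyte markers, 2 could be tested, and Itgam was higher in WT PD1+Tim3+ cells. The list summed to 10.1 to 12.4 CPM in WT PD1+Tim3- and 14.8 to 15.5 CPM in WT PD1+Tim3+ cells, with C1qa, C1qb, Lyz2 and Csf1r each below 1 CPM in every library. The NK cell gene Klrb1c and the regulatory T cell gene Foxp3 were higher and the endothelial gene Pecam1 was lower in WT PD1+Tim3+ cells. The NK list summed to 61.6 to 69.7 CPM and 68.4 to 72.3 CPM in these groups, and Eomes did not pass (-0.05 ± 0.13, adjusted p 0.806). Averaged over the genotypes, Itgam, Klrb1c, Foxp3 and the CD4 T cell gene Cd40lg were higher in PD1+Tim3+ cells. Pecam1 and the melanoma gene Pmel (-1.27 ± 0.34, edgeR adjusted p 0.0218) were lower there. Other genes of these lists did not follow: Cd68 (0.08 ± 0.17, adjusted p 0.783), Eomes (-0.08 ± 0.10, adjusted p 0.602) and Tyr (0.05 ± 0.11, adjusted p 0.833) did not pass. Cd4 was too low to test, and Cd40lg did not pass in WT (0.10 ± 0.23, adjusted p 0.799). Transcript length moved with the sort in WT as well: the 191 tested genes with a longest transcript under 500 bases moved by -0.56 (median, log2), and Ifi27l2a, at 463 bases, is among them. Its own value was -1.15, and the part of length in it was not tested.

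Within the labelled dKO, 4 members passed (10.3%, beside 9.93% of all tested genes, 5.21% higher and 4.72% lower), which is close to the share of all genes. Epsti1 was higher (0.46 ± 0.13, adjusted p 0.0478), and Oasl1 (-1.56 ± 0.36, adjusted p 0.0234), Parp12 (-1.09 ± 0.28, adjusted p 0.0361) and Ddx60 (-0.87 ± 0.17, adjusted p 0.0135) were lower in PD1+Tim3+ cells. The call of Epsti1 was lost in DESeq2 and with either replicate block. That of Oasl1 was lost in DESeq2 and with the block within genotype, and that of Parp12 with robust empirical Bayes and the replicate block. Mx1 had the largest positive value, 0.47 ± 0.17, and did not pass (adjusted p 0.106), though it did without labelled dKO PD1+Tim3+ replicate 2 (0.65, adjusted p 0.0269). Groups did not overlap for 14 higher and 11 lower members, where 26.2% and 24.7% of all genes behaved so. The count was 0 without either labelled dKO PD1+Tim3- library and 2 without either WT PD1+Tim3+ library, which enter through the shared spread, and 2 with DESeq2, which called 6.97% of all genes. Of the markers of other cells, Cd40lg was 2.67-fold higher in labelled dKO PD1+Tim3+ cells (adjusted p 0.00624), at 13.8 and 12.9 CPM against 4.89 and 5.25 CPM, and its part in these results was not tested.

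The comparison of genotypes asked whether the labelled loss of both NR4A factors, which T cell receptor signals induce, alters interferon stimulated genes in either sort. In PD1+Tim3- cells none of the 39 passed edgeR's test, and none passed in DESeq2, beside 0.0459% of all genes called by edgeR. At an unadjusted p under 0.05, 5 were higher and 1 was lower, 6 of 39, beside 8.27% of all genes. The median log2 fold change was 0.08, 28 of 39 were positive, and the 95% interval lay within a 2-fold change in either direction for 34. Groups did not overlap for 20 members that were higher and 4 that were lower, where 20.3% and 21% of all genes behaved so. The largest value was that of Oasl2, an OAS-like gene, at 2.56 and 1.66 CPM in WT and 4.89 and 6.30 CPM in labelled dKO PD1+Tim3- cells. Oasl2 was at 1.53 and 2.999 CPM in WT and 2.79 and 2.96 CPM in labelled dKO PD1+Tim3+ cells. Its labelled dKO PD1+Tim3- libraries were above the other 6, and the difference of 1.28 ± 0.42 did not pass (adjusted p 0.481). Isg20 (0.63 ± 0.16, adjusted p 0.337) and Ifih1, the sensor of long double-stranded RNA (0.55 ± 0.16, adjusted p 0.453), came next and did not pass, and Ifi27l2a had the most negative value (-0.52 ± 0.21, adjusted p 0.574).

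In PD1+Tim3+ cells, Isg15 was the member that passed (2.56% of members, beside 0.627% of all tested genes). Isg15, the ubiquitin-like protein that is conjugated to other proteins after interferon, had 35.2 and 30.7 CPM in WT and 55.8 and 50.2 CPM in labelled dKO PD1+Tim3+ cells, beside 38.1 and 34.6 CPM in WT and 41.4 and 33.6 CPM in labelled dKO PD1+Tim3- cells. The labelled dKO PD1+Tim3+ pair was above the other 6 libraries, and the difference was 0.70 ± 0.13, or 1.62-fold (adjusted p 0.0360). The call was lost without either labelled dKO PD1+Tim3- library, without either WT PD1+Tim3+ library (adjusted p 0.0344 to 0.509 over the libraries left out) and in DESeq2 (adjusted p 0.108). Isg15 has a transcript of 756 bases, and the 513 tested genes of at least 700 and under 1000 bases had a median of 0.15 in this comparison, against -0.01 for the longest class. The CD4 and regulatory T cell list was also higher in the labelled dKO PD1+Tim3+ cells, at 13.5 to 15.5 CPM against 7.14 to 7.31 CPM in WT, through Cd40lg (1.47 ± 0.20, adjusted p 0.00943), while Foxp3 of the same list had -1.08 ± 0.48 (adjusted p 0.399) and Cd4 was at 0 in all 4 of these libraries. The NK list was lower there, at 36.0 to 42.6 CPM against 68.4 to 72.3 CPM in WT: Eomes was lower (-0.87 ± 0.14, adjusted p 0.0183), and Klrb1c had -0.70 ± 0.20 (adjusted p 0.180). The part of length or of these lists in the result was not tested.

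Other members of the ISG15 pathway did not follow Isg15. Usp18, the protease that removes ISG15 and blocks the interferon receptor, had 23.3 and 23.0 CPM in WT and 17.9 and 11.3 CPM in labelled dKO PD1+Tim3+ cells (-0.67 ± 0.23, adjusted p 0.256). The ligase genes Herc6 and Trim25 gave -0.24 and -0.17 and did not pass. The most negative value was that of Mx2 (-1.01 ± 0.40, adjusted p 0.337), followed by Oas1a (-0.79 ± 0.23, adjusted p 0.186). Over the 39, 18 were positive and the median was -0.01. Groups did not overlap for 13 higher and 14 lower members, where 20.7% of all genes did so in each direction. The 95% interval lay within a 2-fold change for 33 members.

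Averaged over the sorts, Isg20 was higher in the labelled dKO, and it was the member that passed (0.59 ± 0.11, 1.501-fold, adjusted p 0.0280, beside 0.864% of all tested genes). All 4 labelled dKO libraries were above all 4 WT libraries, at 24.7 to 35.2 CPM against 15.4 to 23.9 CPM, and the differences within PD1+Tim3- (0.63 ± 0.16, adjusted p 0.337) and PD1+Tim3+ cells (0.54 ± 0.14, adjusted p 0.134) were alike in size. Of the 8 fits that each leave out a library, 1 kept the call, that without labelled dKO PD1+Tim3+ replicate 2 (adjusted p 0.0150 to 0.254 over the 8), and DESeq2 gave an adjusted p of 0.0783. The NK list moved with the genotype too, at 36.0 to 43.0 CPM in labelled dKO and 61.6 to 72.3 CPM in WT libraries, through Eomes (-0.84 ± 0.10, adjusted p 0.00232), and its part in the result was not tested. The extremes were Oasl2 (0.75 ± 0.29, adjusted p 0.435) and Mx2 (-0.69 ± 0.29, adjusted p 0.494). The groups did not overlap for 3 members that were higher, Isg20, Xaf1 and Sp100, and for 2 that were lower, Oas1a and Trim25, where 1.41% and 1.52% of all genes behaved so; of these Isg20 passed the test. For 37 members the 95% interval lay within a 2-fold change.

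**Figure D4:**
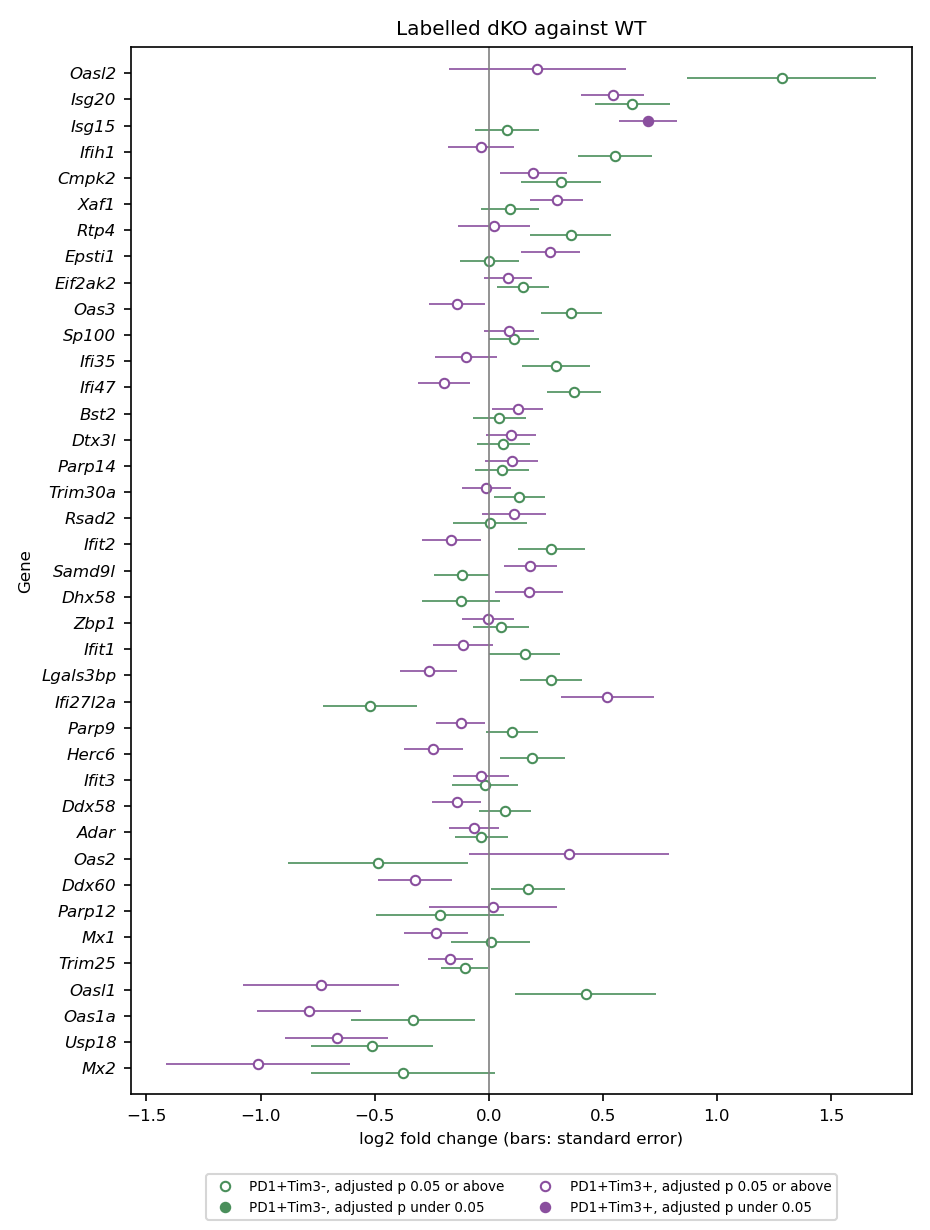
Log2 fold change of the labelled dKO against WT for the 39 tested members, in PD1+Tim3- and PD1+Tim3+ cells, with standard errors as bars and filled points for an edgeR adjusted p under 0.05. Isg15 in PD1+Tim3+ cells is the filled point, and Oasl2 in PD1+Tim3- cells has the largest value.

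Whether the difference between sorts depended on the genotype was tested as an interaction, the labelled dKO difference minus the WT difference. None of the 39 members and none of all 13073 genes passed edgeR's test (0% called), while DESeq2 called 68 genes (0.52%) and no member. At an unadjusted p under 0.05, 2 members were higher and 7 were lower, 9 of 39, beside 10.1% of all genes. The median was -0.12 and 12 of 39 were positive. Ifi27l2a had the largest value (1.04 ± 0.29, adjusted p 0.257), and passed without labelled dKO PD1+Tim3+ replicate 1 (adjusted p 0.00219 to 0.723 over the libraries left out). Its class of transcripts under 500 bases had a median interaction of 0.64, and the part of length was not tested. Oasl1 had the most negative value (-1.16 ± 0.46, adjusted p 0.434), and Isg15 (0.62 ± 0.19, adjusted p 0.304), Ifi47 (-0.57 ± 0.17, adjusted p 0.277) and Lgals3bp (-0.54 ± 0.18, adjusted p 0.354) did not pass either. The members that passed in 1 genotype and not in the other are therefore not shown to differ between genotypes.

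**Figure D5:**
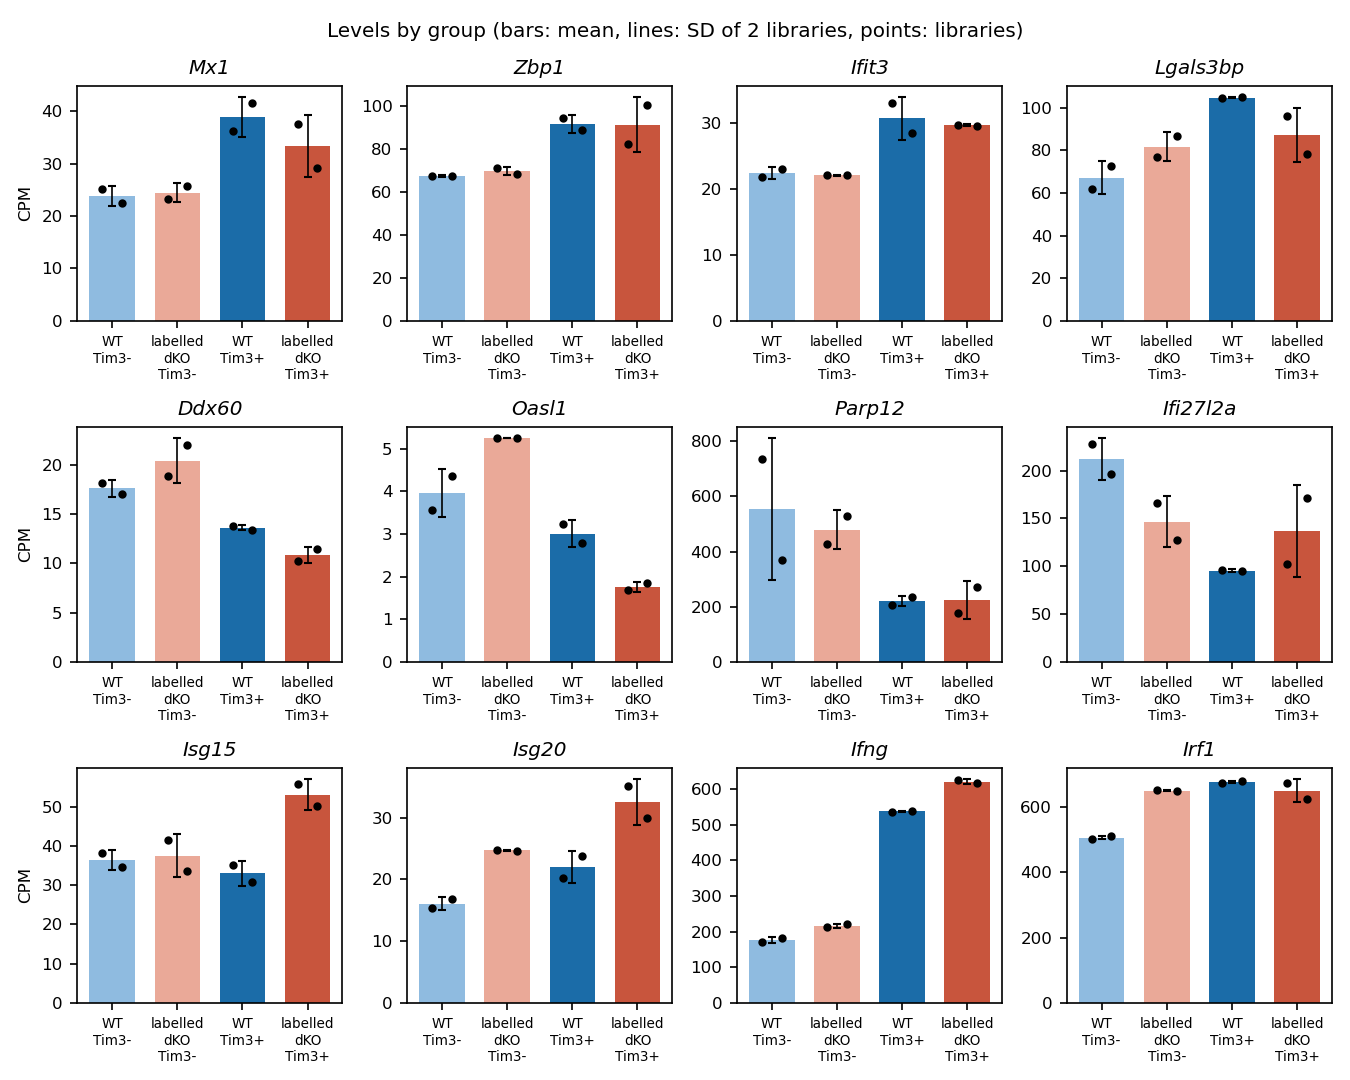
CPM of 10 members and of the pathway genes Ifng and Irf1 in the 4 groups, with bars for means, lines for the SD of 2 libraries and points for libraries, on axes that start at 0. Mx1, Zbp1, Ifit3 and Ifng are higher and Ddx60, Oasl1 and Parp12 lower in PD1+Tim3+ cells of both genotypes, and Isg15 is highest in the labelled dKO PD1+Tim3+ cells.

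The genes that make, receive and limit the interferon signal were read from a list of 41, of which 34 were in the table and 32 were tested. Among the ligands, Ifng, which encodes interferon gamma, had 171 and 182 CPM in WT and 212 and 220 CPM in labelled dKO PD1+Tim3- cells, and 537 and 539 CPM in WT and 626 and 616 CPM in labelled dKO PD1+Tim3+ cells. It was 3.05-fold higher in PD1+Tim3+ cells of WT (log2 1.61 ± 0.11, adjusted p 1.86e-05) and 2.88-fold higher in those of the labelled dKO (1.52 ± 0.11, adjusted p 2.63e-05). Of the type I genes, Ifna4 had 2 counts in 1 library and none in the other 7. The type I genes Ifnb1, Ifna1, Ifna2, Ifna5 and Ifne and the interferon lambda genes Ifnl2 and Ifnl3, which are type III, were not analysed here. Ifnk, the gene of interferon kappa, was read at 70.3 to 109 CPM in PD1+Tim3- cells and 25.7 to 39.3 CPM in PD1+Tim3+ cells, and was lower in the latter in WT (-1.46 ± 0.21, adjusted p 0.00188) and in the labelled dKO (-1.25). Ifnk lies inside Mob3b on the opposite strand, so with the strand setting unknown these reads may belong to either gene.

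The receptor and its factors moved less. Ifnar1 stayed between 139 and 161 CPM in all 8 libraries (0.00 ± 0.08 between the sorts, adjusted p 0.980), and no receptor or kinase gene passed within a genotype. Averaged over genotypes, the kinase gene Jak2 (-0.22 ± 0.07, adjusted p 0.0442) and the interferon gamma receptor gene Ifngr2 (-1.22 ± 0.34, adjusted p 0.0255) were lower in PD1+Tim3+ cells. The call of Jak2 was lost in 11 of 14 alternative fits, and that of Ifngr2 in DESeq2 and in all 8 fits without a library (adjusted p 0.0589 to 0.119). Of the 7 transcription factor genes, Irf1, itself induced by interferons, had 504 and 511 CPM in WT and 653 and 651 CPM in labelled dKO PD1+Tim3- cells, and 676 and 680 CPM in WT and 676 and 626 CPM in labelled dKO PD1+Tim3+ cells. The WT PD1+Tim3- libraries were the lowest of the 8. Irf1 was higher in PD1+Tim3+ cells of WT (0.42 ± 0.11, adjusted p 0.0258), and its genotype difference in PD1+Tim3- cells did not pass (0.36 ± 0.11, adjusted p 0.476). Irf9 was likewise lowest in WT PD1+Tim3- cells, at 59.1 and 57.6 CPM, with the other 6 libraries above these, and did not pass in any comparison. Irf5 was higher in PD1+Tim3+ cells of WT (0.95 ± 0.28, adjusted p 0.0410) and of the labelled dKO (1.39 ± 0.40, adjusted p 0.0492), from low levels of 1.99 to 8.84 CPM. The WT call was lost in 6 of 14 alternative fits and the labelled dKO call in 10 of 14, where the difference was 0.82 without labelled dKO PD1+Tim3- replicate 1 (adjusted p 0.495). Irf7, the factor that amplifies type I interferon production, did not pass in any comparison.

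Among the sensors, adaptors and inhibitors, Socs1, the suppressor of JAK kinases, rose in PD1+Tim3+ cells of WT (0.81 ± 0.14, adjusted p 0.00407), from 68.2 and 81.3 CPM to 135 and 127 CPM. So did Trex1, the exonuclease that clears cytosolic DNA (0.83 ± 0.18, adjusted p 0.0103), and Tmem173, which encodes STING (0.42 ± 0.13, adjusted p 0.0444). Irf2, a repressor of interferon responses, was lower there (-0.57 ± 0.14, adjusted p 0.0190), and Ikbke, a kinase that activates IRF factors, was lower in PD1+Tim3+ cells of the labelled dKO (-0.43 ± 0.11, adjusted p 0.0355). Of these calls, that of Socs1 held in all 14 alternative fits, while those of Trex1, Irf2, Tmem173 and Ikbke were lost in 3, 4, 10 and 11 of 14, and that of Irf1 in 8. Without WT PD1+Tim3+ replicate 1, Tmem173 had 0.27 (adjusted p 0.283). In all, 6 of the 32 rose and 2 fell with the sort in WT, 8 of 32 beside 17% of all genes, and 2 rose and 2 fell in the labelled dKO, 12.5% beside 9.93%. None of the 32 passed edgeR's test between genotypes in either sort or in the interaction, where 6, 4 and 4 had an unadjusted p under 0.05 in PD1+Tim3- cells, in PD1+Tim3+ cells and in the interaction, beside 8.27%, 12% and 10.1% of all genes. The extremes between genotypes were Ifngr2 (0.59 ± 0.45, adjusted p 0.778) and Irf5 (-0.81 ± 0.42, adjusted p 0.653) in PD1+Tim3- cells, and Irf2 (0.24 ± 0.14, adjusted p 0.556) and the RNA receptor gene Tlr7 (-0.58 ± 0.69, adjusted p 0.820) in PD1+Tim3+ cells. In the interaction they were Irf2 (0.49 ± 0.21, adjusted p 0.462) and Ifngr2 (-0.93 ± 0.70, adjusted p 0.718), of which Ifngr2 was read at 0.680 to 2.62 CPM. Ifngr2 also had the most negative difference between the sorts in the labelled dKO (-1.69 ± 0.53, adjusted p 0.0712). Averaged over the sorts, the extremes were Ifng (0.25 ± 0.08, adjusted p 0.282) and Irf5 (-0.59 ± 0.25, adjusted p 0.513). Tlr3, a sensor of double-stranded RNA, was too low to test.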

How the data were processed

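The authors deposited 1 table of raw counts by gene symbol, which covers 8 libraries. The submitters' processing notes name cutadapt 1.18, Bowtie2 2.2.5 and build mm10. The counting tool, its annotation and its strand setting are not given in sources used here. Columns that name PD1 without Tim3 were taken as the PD1+Tim3- libraries, because those of PD1+Tim3+ libraries carry both names. The final unnamed line, which repeats the column totals, was dropped. Total counts ran from 1944999 to 13418762.

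The counts were tested with edgeR 4.0.16 (R 4.3.3) by the quasi-likelihood F test, with TMM scaling and edgeR's default filter on low counts, in 1 fit of 8 libraries with a mean for each of the 4 groups, which left 4 residual degrees of freedom. The 7 contrasts were each adjusted by Benjamini-Hochberg over all tested genes, and an adjusted p under 0.05 was a call. With 2 mice per group the p-values assume that all groups vary alike, and treat the sorts as independent samples. The SE was taken as the size of the log2 fold change divided by the root of F. Alternatives were other size factors (RLE), no low-count filter, DESeq2 1.42.0, robust empirical Bayes, replicate blocks and leaving out each library. The scripts were tested on simulated data. Transcript lengths and coordinates are from GENCODE on GRCm38, and lengths were matched for 92.0% of tested genes. The members and gene lists were chosen with earlier results of these data known. Library values are given for members called in any contrast, the extremes of each contrast, the 3 of highest mean CPM and those too low to test. Pathway genes were named where they were called or extreme in a contrast. One item of the pathway list is not reported here.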

Additional observations from a re-analysis of the deposited data

How the results depend on the processing

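Counts of all genes are given before counts of interferon stimulated genes. Without the low-count filter, all-gene calls between genotypes went from 113 to 269 averaged over the sorts, from 6 to 232 in PD1+Tim3- and from 82 to 486 in PD1+Tim3+ cells, and from 0 to 331 in the interaction, and the members called went from 1 to 3, 0 to 1, 1 to 5 and 0 to 1. DESeq2 called 68 genes in the interaction, 1831 instead of 2978 between the sorts on average, and 1303 (479 higher, 824 lower) instead of 2223 (1078 higher, 1145 lower) in WT; it called 6 members instead of 14 on average, 4 instead of 12 in WT, 2 instead of 4 in the labelled dKO, and 0 instead of 1 between genotypes both on average and in PD1+Tim3+ cells. The robust empirical Bayes fit called 171 genes between genotypes on average, 56 in PD1+Tim3- cells and 4 in the interaction. Deviations of same-numbered libraries of a genotype correlated at -0.007 in WT and -0.030 in the labelled dKO, so no pairing by replicate number was visible. Such values cannot tell whether the sorts came from the same mice. With a replicate block, 69 genes and 0 members were called between genotypes on average, 0 genes in PD1+Tim3- and 40 in PD1+Tim3+ cells, 716 genes between the sorts in the labelled dKO and 7 members in WT. A replicate block within genotype gave 7 members in WT and 2 in the labelled dKO. Leaving out each library gave 39 to 139 genes and 0 to 1 member between genotypes on average, 0 to 31 genes and 0 members in PD1+Tim3- cells, 6 to 413 genes and 0 to 3 members in PD1+Tim3+ cells, 0 to 323 genes and 0 to 1 member in the interaction, 1623 to 3391 genes and 6 to 17 members between the sorts on average, 433 to 2773 genes and 0 to 12 members in WT, and 132 to 1392 genes and 0 to 4 members in the labelled dKO. Values were recomputed for the members called or extreme in a comparison, and none of these changed sign; the median of the tested members between the sorts in the labelled dKO did, from 0.03 to -0.04 without labelled dKO PD1+Tim3+ replicate 1. RLE size factors kept the count of members in all 7 comparisons. The causes of these shifts were not tested. The members under about 7 CPM, Oas2, Oasl1, Oasl2 and Mx2, had the largest standard errors, at 0.23 to 0.30 in the averaged comparison of sorts. The part of depth in this was not tested.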
